A study of Mus musculus with 15 samples.

Results

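The Serpina antitrypsin cluster is an array of serine protease inhibitor genes on mouse chromosome 12. It was studied here as a window of 850 kb that begins at position 104850001 of genome build mm9. The window was chosen by position, as the place of 8 named genes: Serpina1a, Serpina1b, Serpina1c, Serpina1d, Serpina1e, Serpina6, Serpina10 and Serpina12. It makes up 17 of the 49434 windows of 50 kb on the autosomes, and stretches of 500 kb on either side served as flanks. The maps come from srHC-seq, in which crosslinked chromatin is sonicated and long, sonication-resistant DNA fragments are separated from short ones, so that compact and open chromatin can be told apart. Hepatocytes, isolated by liver perfusion, came from 15 mice in 3 groups of 5. The first group, 3 males with 2 females, was wild type (Wt) and 14 days old (P14). The second, 2 males with 3 females, was also at P14 and had the genotype Alb-Cre;Ezh1-/-;Ezh2f/f, in which Ezh1 is lost in the whole animal and Ezh2 is removed where the albumin promoter drives Cre, as in hepatocytes. It is called the knockout below. The third, again 2 males with 3 females, was wild type and 2 months old. The proportion of males thus differed between the P14 groups and with age, and its part in the results was not tested.

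Each group is represented by 1 map that was read as a pool of its mice, and every 2 kb bin of it has 1 of 3 classes: closed (het), intermediate (int) or open (euch). The calls carry no read counts, so the depth behind them is unknown. With 1 map per group no difference can be set against a spread between animals, and no test was made. The hepatocyte label could not be checked against marker genes, because the maps hold no expression values and no mm9 gene annotation was used here. For the same reason single genes were not placed within the window, and results are given by mm9 position.

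Serpins are inhibitors that trap a protease through an exposed loop, which the protease cuts and is then held by. Hepatocytes make and secrete many of them as plasma proteins, and alpha-1 antitrypsin is a classic example. Serpina1a to Serpina1e are the mouse copies of the gene for alpha-1 antitrypsin, the plasma inhibitor of neutrophil elastase. Serpina6 encodes corticosteroid-binding globulin, a serpin that carries glucocorticoids in blood in place of inhibiting a protease. Serpina10 encodes the protein Z-dependent inhibitor of a clotting protease. Serpina12 encodes vaspin, a serpin first known from fat tissue. Ezh1 and Ezh2 are the enzymes of PRC2, a Polycomb complex that places the repressive methyl mark H3K27me3 on chromatin.

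In RefSeq's GRCm38.p6 gene table, which was used only for names and neighbours, all 8 members lay between Ppp4r4, a subunit gene of a protein phosphatase, and Gsc, the homeobox gene goosecoid. Of the 43 genes between these neighbours 23 are protein-coding, and all 23 of those are Serpina genes. With increasing position, the members came in the order Serpina10, Serpina6, Serpina1b, Serpina1d, Serpina1a, Serpina1c, Serpina1e and Serpina12. The array also holds Serpina16 and Serpina1f, which lie between Serpina6 and the antitrypsin copies, and Serpina11 and Serpina9, which lie between Serpina1e and Serpina12. Beyond Serpina12 came Serpina5, the gene for protein C inhibitor, and 14 genes and pseudogenes of the Serpina3 group, which is related to antichymotrypsin. Of 16 other Serpina genes listed for the cluster, 15 were found there, and Serpina4 was found only as a pseudogene, Serpina4-ps1.

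The antitrypsin copies are shown first because the promoter stretches printed below are close to identical, so that a read from one can match another. The promoter table of RefSeq (GRCm38.p6, 250 bases before to 50 after each gene start) held 6 of the 8 members, and all 5 copies lay on the minus strand. The stretches below hold 115 bases, 5′ to 3′, and end before the annotated start of each copy. They are Serpina1b at chr12:103738200-103738314, Serpina1d at chr12:103773634-103773748, Serpina1a at chr12:103863625-103863739, Serpina1c at chr12:103904962-103905076 and Serpina1e at chr12:103956960-103957074, all in GRCm38.p6. They were placed on the longest run of letters that all 5 promoters share, which is 59 bases, and cover most of it. Capitals mark GTTAAT, a core of the recognition site of HNF1, a hepatocyte transcription factor.
Serpina1b: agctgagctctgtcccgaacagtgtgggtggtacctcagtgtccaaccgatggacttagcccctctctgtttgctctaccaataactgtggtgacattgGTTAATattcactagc
Serpina1d: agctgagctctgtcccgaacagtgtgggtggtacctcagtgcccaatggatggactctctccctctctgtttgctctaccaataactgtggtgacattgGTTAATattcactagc
Serpina1a: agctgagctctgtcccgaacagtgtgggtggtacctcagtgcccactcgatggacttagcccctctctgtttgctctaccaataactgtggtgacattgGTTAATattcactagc
Serpina1c: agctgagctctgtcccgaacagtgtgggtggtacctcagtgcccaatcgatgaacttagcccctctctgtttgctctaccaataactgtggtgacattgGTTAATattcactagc
Serpina1e: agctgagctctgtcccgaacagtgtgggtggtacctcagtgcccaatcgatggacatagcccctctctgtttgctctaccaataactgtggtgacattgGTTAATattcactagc
Over these 115 bases, compared position by position, the 10 pairs of copies were 93.9% to 98.3% identical. Part of that identity comes from placing the stretches on a shared run, and whole promoters and genes were not compared. The 3 pairs among Serpina1a, Serpina1c and Serpina1e were the closest, and Serpina1b and Serpina1d the farthest apart. GTTAAT, searched on both strands, was found in the promoters of all 5 copies and not in that of Serpina12, and 7.10% of the 32851 promoters in the table hold it. Such a match describes the letters and does not show a bound site. How reads that fit several copies were treated before the domains were called is not given in the sources used here, and its part in the calls was not tested.

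The window was mostly open in all 3 maps and nearly wholly open at 2 months. The euch class covered 602 kb of the 850 kb in the P14 wild type, 674 kb in the P14 knockout and 782 kb at 2 months, or 70.8%, 79.3% and 92.0%. The het class covered 170, 104 and 24 kb in the same order, which is 20.0%, 12.2% and 2.82%. The int class covered 9.18%, 8.47% and 5.18%. Over all autosomes the euch share was near 43% in each map (42.7%, 42.4% and 43.0%), and the het share was 45.4%, 46.0% and 46.2%. The rise in the euch share of the window therefore had no counterpart in the autosomal totals. How calls were scaled within each map is unknown, so shares are read against the other regions of the same map.

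**Figure D1:**
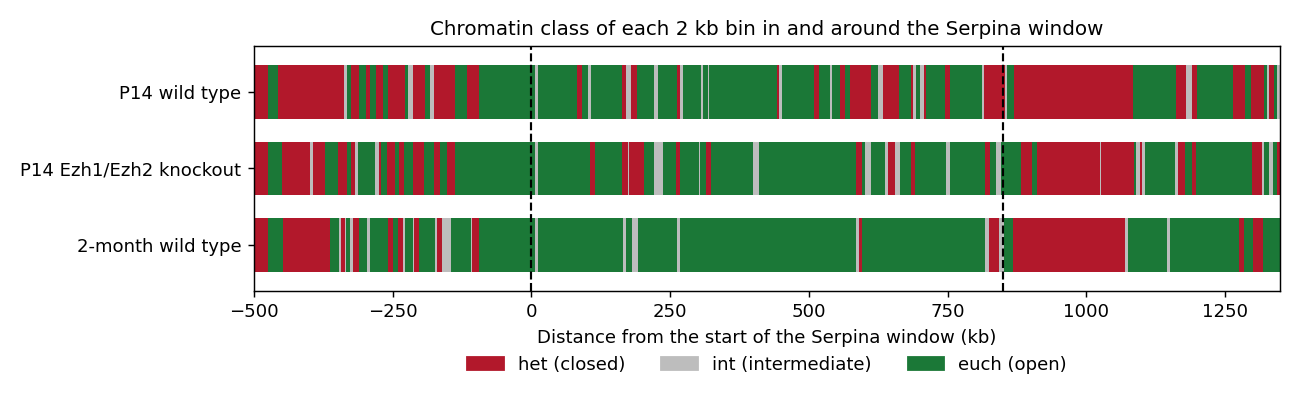
Class of every 2 kb bin along the Serpina window (between the dashed lines) and 500 kb on either side, by distance in kb from the window's start, with 1 row for each of the 3 maps. The window is mostly euch in each row, and the red het stretches inside it come to 170 kb in the P14 wild type, 104 kb in the knockout and 24 kb at 2 months.

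The flanks were less open than the window in each map. In the left flank, the euch share was 38.0% in the P14 wild type, 57.6% in the knockout and 55.6% at 2 months. In the right flank it was 35.2%, 46.0% and 52.0%. The open block did not begin at the window's start. It reached 94 kb into the left flank in both wild-type maps, up to a het domain that ended at 104756000, and 138 kb in the knockout. On the right side, the next het domain of at least 100 kb began 20 kb past the window in the P14 wild type (105720001 to 105934000, 214 kb) and 18 kb past it at 2 months (105718001 to 105920000, 202 kb). In the knockout it began 62 kb past the window and was shorter (105762001 to 105874000, 112 kb). This rests in part on the length rule. The knockout domain ended at a single int bin of 2 kb, past which het calls resumed. Nearer the window, further het bins were parted from it by a short euch stretch. The window of 50 kb from 105750001 to 105800000 was 100% het in both wild-type maps and 80.0% het in the knockout. Those farther on, from 105800001 to 105850000 and from 105850001 to 105900000, were 96.0% to 100% het in every map.

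An openness score was formed by subtracting the het share from the euch share, so that it runs from -1 (all het) to 1 (all euch). For the whole window the score was 0.51 in the P14 wild type, 0.67 in the P14 knockout and 0.89 at 2 months. The autosomes were divided into 2892 windows of the same length. In the P14 wild type 12.1% of these scored as high as the Serpina window or higher, in the knockout 7.37%, and at 2 months 2.77%. The Serpina window thus moved up in the order of autosomal windows from map to map.

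Maturation from P14 to 2 months is the first comparison, and it asks how closed and open chromatin at this liver locus differ between young and adult mice. Calls in the window changed almost entirely in one direction. Of its bases, 218 kb (25.6%) were called more open at 2 months than at P14 and 2 kb (0.235%) more closed. Over all autosomal bins 13.6% moved towards euch and 13.7% towards het. The share of changed bases was near the autosomal one, 25.9% against 27.4%, so the window differed from the autosomes in the direction of change and little in its amount. Of the 2892 autosomal windows of 850 kb, 4.88% had as small a share of bases moving towards het, and 11.7% had as large a share moving towards euch. Both flanks were one-sided too, with 26.0% of bases towards euch and 0.8% towards het on the left, and 19.6% and 1.2% on the right. Once bases up to 5 kb from any domain edge of the P14 wild type were left out, the window had 9.82% towards euch and 0.0% towards het, against 7.0% and 6.12% over the autosomes.

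A region that is mostly open has few closed bases to lose, so changes were also read from the class at P14. Of the 170 kb that were het in the P14 wild type, 110 kb (64.7%) were euch at 2 months, 36 kb were int and 24 kb (14.1%) were still het. Over the autosomes 14.2% of P14 het bases were euch at 2 months and 77.7% were still het. Of the 78 kb that were int at P14, 72 kb (92.3%) became euch, against 29.7% over the autosomes. Of the 602 kb that were euch, 600 kb (99.7%) remained so and none became het, against 77.3% that remained over the autosomes. In the flanks, 60.7% (left) and 75.3% (right) of P14 het bases were still het at 2 months.

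**Figure D2:**
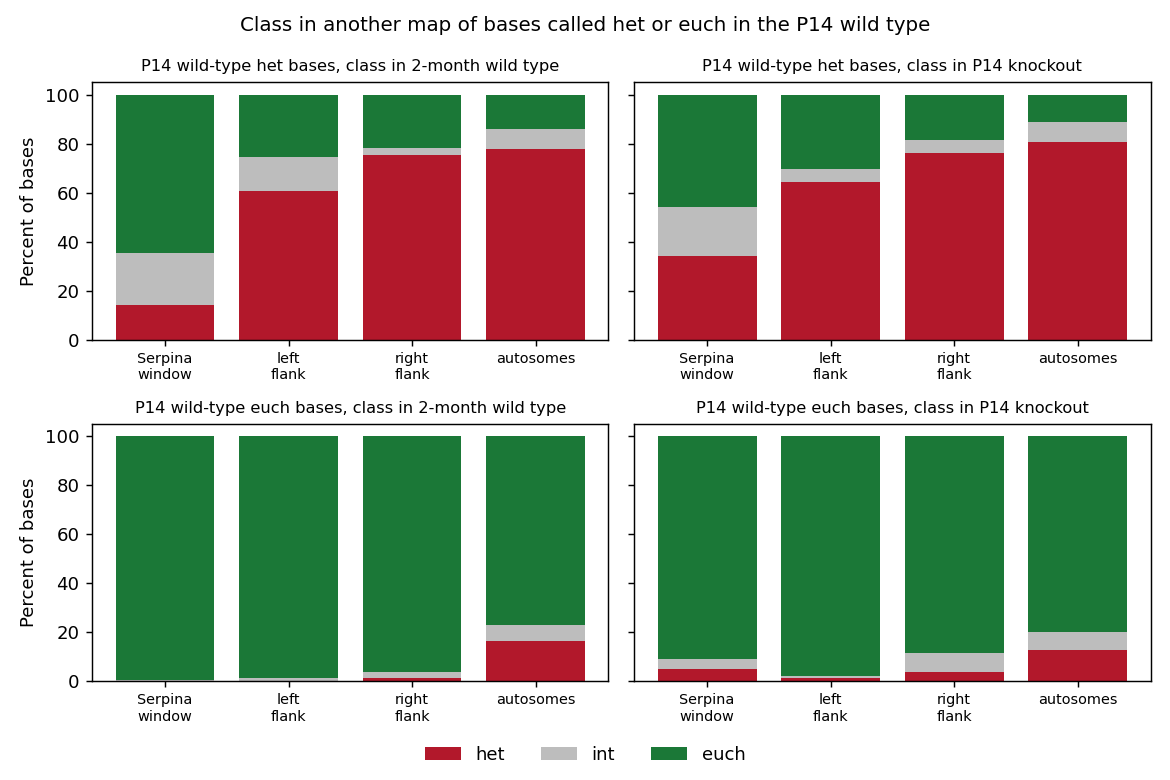
Stacked bars give the percent of bases that were het (top row) or euch (bottom row) in the P14 wild type by their class in the 2-month wild type (left) and in the P14 knockout (right), for the Serpina window, its flanks and all autosomes. In the window 64.7% of P14 het bases were euch at 2 months and 45.9% in the knockout, against 14.2% and 11% over the autosomes.

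The het domains of the window at P14 were short, and over the autosomes bases in short domains changed class with age more often than bases in long ones. Of the 13 het domains that touched the window at P14, 10 were 10 kb or shorter and 3 were longer than 20 kb. Among bases in het domains under 10 kb, 0.0% of 40 kb in the window were still het at 2 months, against 45.8% over the autosomes. In domains of 10 kb up to 20 kb the shares were 0.0% of 30 kb and 59.9%. In domains of 20 kb up to 40 kb they were 24.0% of 100 kb and 73.5%. Euch domains of the window showed the reverse. Of 22 kb in euch domains under 10 kb, 100% stayed euch, against 43.9% over the autosomes. The gap was smaller in euch domains of 40 kb or more, which held 370 kb of the window. There 100% stayed euch, against 92.3% over the autosomes. At each domain length present, the window thus held with age fewer of its het bases and more of its euch bases than the autosomes did. These are few domains lying side by side, and they are not independent of each other.

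Each P14 het domain can be followed. In all, 11 of 13 held no het base at 2 months, and 8 of those 11 were euch from end to end. Whole domains were followed in the window only, here and in the knockout. The largest changes lay in the right part of the window. A het domain of 28 kb from 105484001 to 105512000 was euch throughout at 2 months. Its neighbour from 105424001 to 105462000 (38 kb) was euch over 28 kb, int over 4 kb and het over 6 kb. The stretches of at least 10 kb that went from het to euch were 5 in number, and they lay from 104932001 to 104942000, from 105406001 to 105416000, from 105424001 to 105436000, from 105446001 to 105462000 and from 105484001 to 105512000. Counted at any length, 13 stretches went from het to euch (15.3 per Mb, against 9.08 per Mb over the autosomes). No stretch of any length went from euch to het, against 9.06 per Mb over the autosomes. The het that was left at 2 months stood in only 2 places inside the window. These were 6 kb from 105440001 to 105446000 and 18 kb from 105674001 to 105692000, the latter close to the border with the closed block on the right.

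By 50 kb, the score was higher at 2 months in 15 of 17 windows, equal in 2 and lower in none, where 39.6% of autosomal windows were higher, 24.3% equal and 36.2% lower. The median change was 0.24, and the median over all autosomal windows of 50 kb was 0.0. A rise of more than 0.5 was found in 4 of 17 windows (23.5%), against 12.5% of the 49434 autosomal windows, and a fall of that size in none, against 13.9%. With a threshold of 0.3, 8 windows rose, and with 0.8, 2, with no autosomal share computed at these thresholds. The largest rise was from 105450001 to 105500000, which went from -0.32 to 1.0. The adjoining window from 105400001 to 105450000 had -0.44 and 0.68, and that from 105500001 to 105550000 had 0.24 and 1.0. These 3 windows lie side by side. The fourth, from 105000001 to 105050000, had 0.16 and 0.72. Windows that were euch throughout numbered 1 of 17 (5.88%) at P14 and 12 of 17 (70.6%) at 2 months, against 12.1% and 20.1% of all autosomal windows.

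**Figure D3:**
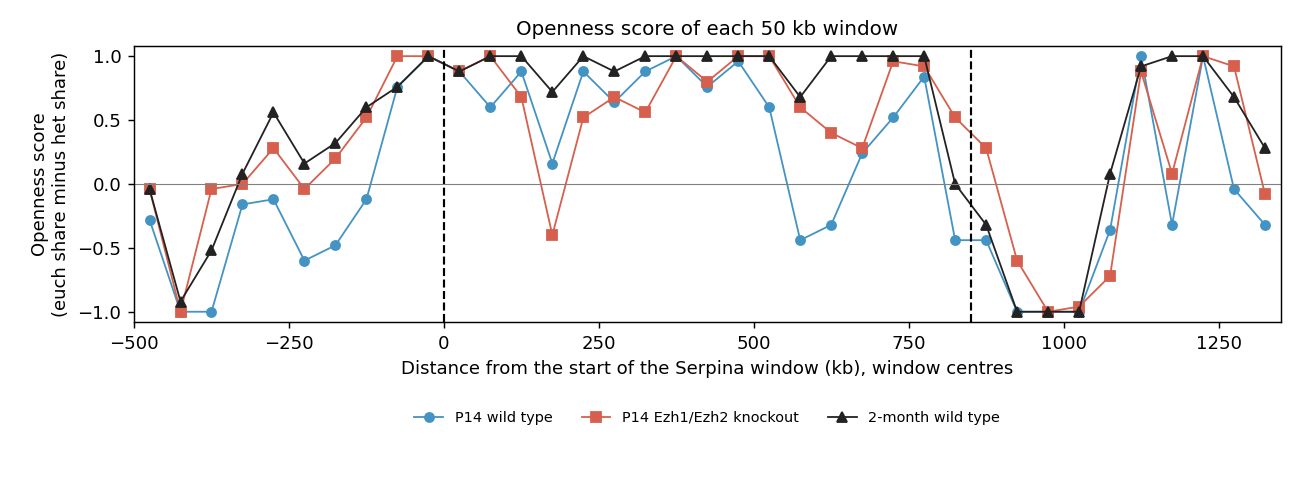
Openness score (euch minus het share, from -1 to 1) of 37 windows of 50 kb against distance in kb from the start of the Serpina window, whose ends are the dashed lines. Points are single values from 1 map each, with no error. The 2-month map lies at or above the P14 wild type in all 17 windows of the cluster, and the knockout lies below the P14 wild type in 4 of them.

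The open domains of the window were also longer at 2 months. The P14 wild type had 18 euch domains that touched the window, with a median length of 32 kb and a longest of 122 kb. At 2 months there were 6, with a median of 127 kb and a longest of 318 kb. Euch domains were fewer at 2 months over the autosomes as well, 25999 against 40522 at P14, with medians of 14 kb and 12 kb. The domain of 318 kb ran from 105118001 to 105436000 and held most of each of 7 euch domains seen at P14, together with 34 kb that had been het and 22 kb that had been int. Of all 25999 autosomal euch domains at 2 months, 1.51% were as long or longer. The second longest ran for 222 kb, from 105446001 to 105668000, and held most of each of 5 P14 euch domains, with 62 kb of P14 het. The 2 long domains were parted by 10 kb only, which held the 6 kb of het named above. Long stretches span several domains of another map by their length alone, and no level without joining was computed. When domains under 11 kb were dropped and their neighbours joined, the P14 wild type had 3 euch domains, the knockout 4 and the 2-month map 1.

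Edges between classes became fewer in step with this. The window held 43 edges at P14, which is 50.6 per Mb and close to the autosomal 49.1 per Mb. At 2 months it held 14 edges, 16.5 per Mb against 34.5 per Mb. Of the 2892 autosomal windows of 850 kb, 14.1% had as few edges or fewer at 2 months. Of the 43 P14 edges, 5 (11.6%) stood at the same 2 kb position at 2 months, where they made up 35.7% of the 14 edges. Over the autosomes, the shared edges were 15.2% of those at P14 and 21.7% of those at 2 months. All 3 maps shared 3 of the 75 edge positions in the window (4.0%), against 2.64% of autosomal positions. They stood after positions 104856000, 104862000 and 105118000, and the first pair bounds an int stretch of 6 kb, the only stretch that was int in all 3 maps.

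**Figure D4:**
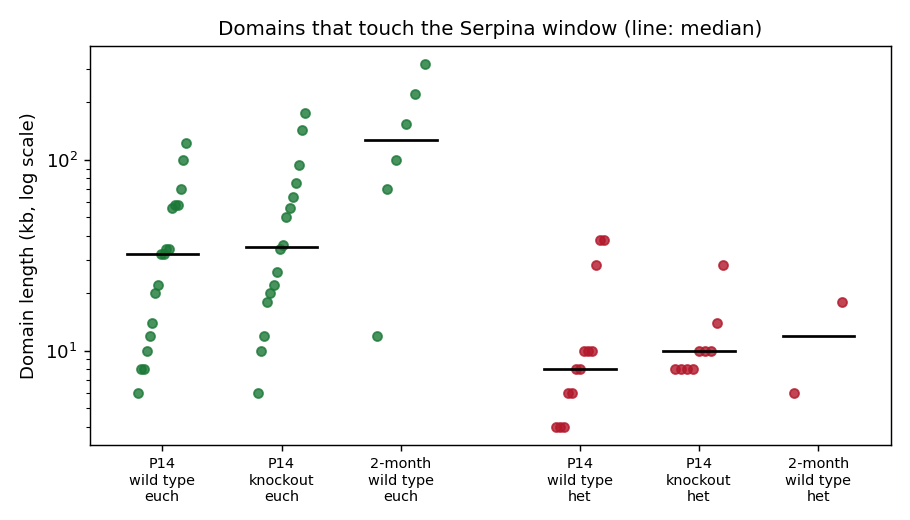
Length in kb, on a log scale, of each euch (green) and het (red) domain that touches the Serpina window, by map; black lines are medians. Euch domains number 18, 16 and 6 from left to right, and the longest measure 122, 176 and 318 kb.

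Loss of Ezh1 and Ezh2 at P14 is the second comparison, and it asks what the map of this locus looks like without these enzymes at a fixed age. More of the window was open in the knockout than in the wild type of the same age, but calls moved both ways. Of its bases, 160 kb (18.8%) were called more open and 70 kb (8.24%) more closed, against 12.1% and 12.5% of autosomal bins. The flanks were more one-sided than the window, with 23.6% towards euch and 2.0% towards het on the left, and 18.0% and 5.2% on the right. Among the 2892 autosomal windows of 850 kb, 14.9% had as large a share towards euch and 41.9% had as small a share towards het. Without the bases within 5 kb of a wild-type edge, the window had 8.84% towards euch and 4.91% towards het, against 5.84% and 5.18% over the autosomes. Of the 170 kb of wild-type het, 78 kb (45.9%) were euch in the knockout, 34 kb int and 58 kb (34.1%) still het. Over the autosomes the shares were 11% for euch and 80.6% for het. At matched domain length the gap was smallest in the shortest domains. It was nearly as wide as the unmatched one in domains of 20 kb up to 40 kb, which held 100 kb of the 170 kb. In domains under 10 kb 40% of window bases were still het, against 52.2% over the autosomes, in those of 10 kb up to 20 kb 33.3% against 65.2%, and in those of 20 kb up to 40 kb 32.0% against 77.3%. Of wild-type euch bases, 91.0% stayed euch in the window and 79.9% over the autosomes. The remaining euch bases of the window went to het over 30 kb and to int over 24 kb.

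By windows of 50 kb, the knockout scored higher than the wild type in 11 of 17, lower in 4 and equal in 2. Over the autosomes 37.7% of windows were higher, 37.9% lower and 24.4% equal. The larger gains and losses of openness lay in different places, while single bins moved both ways in each part. The left part, from 104950001 to 105200000, was where the knockout was less open. Of its 5 windows of 50 kb, 4 scored lower than in the wild type and the fifth was higher by 0.04. Within the left part, the window from 105000001 to 105050000 fell most, from a wild-type score of 0.16 to -0.4. Its het share was 32.0% in the wild type against 68.0% in the knockout, where a het domain of 28 kb ran from 105026001 to 105054000. The 14 kb from 105040001 to 105054000 had been euch in the wild type. That was the only stretch of at least 10 kb in the window to go from euch to het. Of the 10 windows from 105200001 onwards, 9 scored higher in the knockout and 1 was equal. Some of these rises were small: 0.04 in the windows that begin at 105250001, 105300001 and 105500001, and 0.08 in that at 105600001. The largest rise was from 105400001 to 105450000, where a wild-type score of -0.44 stood against 0.6 in the knockout. The window from 105450001 to 105500000 had -0.32 and 0.4. The last window, which begins at 105650001, had -0.44 and 0.52. The split into a left and a right part was made after the values had been seen.

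A rise of more than 0.5 was found in 3 of 17 windows (17.6%), against 7.18% of autosomal windows, and a fall of that size in 1 of 17, against 8.53%. The median change was 0.04. With a threshold of 0.3, 6 windows rose and 3 fell, and with 0.8, 2 rose and none fell. No autosomal share was computed at these thresholds. With so few windows, the share of the 17 that is called moves by several points with each window. Stretches of at least 10 kb went from het to euch at 4 places. They lay from 104932001 to 104942000, from 105406001 to 105416000, from 105424001 to 105436000 and from 105676001 to 105688000. Counted at any length, 12 stretches went from het to euch (14.1 per Mb, against 8.81 per Mb over the autosomes). From euch to het there were 5 (5.88 per Mb, against 9.08 per Mb). Of the 13 het domains at P14, 6 held no het base in the knockout, 5 of them being wholly euch, and 4 were wholly het still. The last 4 lay from 105014001 to 105020000, from 105030001 to 105040000, from 105112001 to 105118000 and from 105534001 to 105538000.

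The number of open domains differed little between the P14 maps. The knockout had 16 euch domains that touched the window, with a median of 35 kb, against 14 kb over the autosomes. It had 9 het domains there, with a median of 10 kb, against 16 kb. Its longest euch domain ran for 176 kb, from 105260001 to 105436000, and 2.22% of autosomal euch domains of the knockout were as long or longer. It held most of each of 4 wild-type euch domains and ended at the same position as the domain of 318 kb at 2 months. The window held 34 edges in the knockout (40 per Mb, against 45.1 per Mb over the autosomes), and 8 of the 43 wild-type edges stood at the same position there. These were 18.6% of the wild-type and 23.5% of the knockout edges, against 22.2% and 24.2% over the autosomes.

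The knockout at P14 and the wild type at 2 months differ in both age and genotype, and both were set against the same P14 wild-type map above. Their values for single places are therefore given side by side, with no measure of likeness. Between these maps, 154 kb (18.1%) of the window were more open at 2 months and 20 kb (2.35%) more open in the knockout, where 11.7% and 11.5% of autosomal bins moved in these directions. The 3 windows with a score higher at 2 months by more than 0.5 were those from 105000001 to 105050000 (-0.4 in the knockout and 0.72 at 2 months), from 105450001 to 105500000 (0.4 and 1.0) and from 105500001 to 105550000 (0.28 and 1.0). They were 17.6% of 17 windows, against 8.72% of autosomal windows. In the other direction stood 1 window, the last, with 0.52 in the knockout and 0.0 at 2 months, against 8.77% of autosomal windows. In it, 12 kb from 105676001 to 105688000 were euch in the knockout and het in both wild-type maps. This window adjoins the right flank, where the first het domain of at least 100 kb began farther from the window in the knockout than in the wild-type maps.

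Much of the window did not differ among the maps. All 3 maps gave the same class to 562 kb (66.1%), close to the autosomal 65.0%. Of this, 548 kb were euch, 8 kb het and 6 kb int. Bases that were euch in all 3 maps made up 64.5% of the window and 30.2% of the autosomes. Those het in all 3 made up 0.94% and 31.5%. The stretches of at least 20 kb that were euch in all 3 maps numbered 11, the longest from 105174001 to 105250000 (76 kb) and from 104862001 to 104932000 (70 kb). Next came the stretches from 105302001 to 105360000 and from 105604001 to 105662000, of 58 kb each. No stretch of at least 20 kb was het in all 3 maps inside the window. An autosomal count of such constant stretches is not given here. The window from 105200001 to 105250000 was the only one of 17 to be euch from end to end in every map.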

How the data were processed

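Per the submitters' processing notes, bcl2fastq 2.19.0.316, STAR 2.4.2a and bedtools were used with build mm9. How domains were called is not given in the sources used here. The deposited files are 9 lists of intervals, 1 per class and group, whose start and end positions were used; the deposited score column is 0 throughout, so no signal or depth is held. All 5 mice of a group name its lists, with 1 exception (the euch list, not named by 1 female aged 2 months), so reading the lists as pools is an inference.

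On the autosomes the lists tiled each map without gaps or overlaps, with edges on a 2 kb grid. Bins of 2 kb, windows of 50 kb and windows of 850 kb were compared in Python 3.11.15 (pandas 2.3.3, NumPy 2.4.6), with SciPy 1.17.1 for intervals and Matplotlib 3.10.9 for figures. The reading of bins, the lengths of domains and the counting of class changes were tested on simulated data. The steps for edges, stretches and joined domains were not. Coordinates are 1-based. A window was counted as changed when its openness score differed by more than 0.5, and stretches were named from 10 kb (changed) or 20 kb (constant). With 1 map per group, no p-values are given. Alternatives covered short domains, window bounds, bases near edges, the threshold and the window grid. The window, members, lists and rules were chosen with earlier results of these data known. Gene positions within mm9 and chromosome X were not used here.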

Additional observations from a re-analysis of the deposited data

How the results depend on the processing

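No paired analysis was possible because 1 map per group was used and values of single mice were not used here; leaving out a replicate was not possible either. Of 91 values recomputed under an alternative, 63 stayed within the 95% exact binomial interval over bins of the reported share, or within 1.5 times the reported count, and 28 moved further. These are shares and counts with no sign, so a change of direction was not assessed. The binomial interval was used only to sort these values, since neighbouring bins are not independent.

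Window bounds moved the het share at 2 months. With 50 kb less at each end the 2-month window was 0.8% het and 96.0% euch, and with 50 kb more at each end it was 5.89% het; in the shorter window 0.0% of bases were more open in the knockout than at 2 months. Leaving out bases near a P14 wild-type edge removes the shortest domains whole. With bases within 2 kb left out, the change with age was 17.9%, all of it towards euch and 0.0% towards het. The knockout then differed in 20.6% (13.8% towards euch). Over the autosomes the changes were 20.0% with age and 17.3% in the knockout. With bases within 5 kb left out, the change with age was 9.82%, again with 0.0% towards het. The autosomes had 7.0% towards euch and 6.12% towards het. The knockout then differed in 13.8% (8.84% towards euch, 4.91% towards het), and the 2-month map differed from the knockout in 14.5% (10.8% towards euch).

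With a threshold of 0.3, 8 windows rose with age, and 6 rose and 3 fell in the knockout. With 0.8, 2 rose with age and 0 fell in the knockout. Shifting the grid by 25 kb or leaving out domains under 5 kb kept the counts at the threshold of 0.5 within 1.5 times. Chosen after seeing the data, joining neighbours across domains under 11 kb left 3 euch and 3 het domains in the P14 wild type, 4 and 2 in the knockout, and 1 and 1 at 2 months. The euch domains at 2 months were thus fewer than at P14 with or without joining, while the order of the knockout and the P14 wild type turned (16 and 18 before joining). No int stretch of 20 kb or more was shared by all 3 maps in the window, so leaving such stretches out left nothing to compare, and its 15 values are not counted above. The calls carry no depth, so the precision of single bins is unknown.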
